A study of Mus musculus with 8 samples.

Results

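The home cage amygdala of 4 adult male C57/Bl6J mice was profiled on a miRNA array, and the miRNAs that gave most of its signal are described here. The members were all capture probes whose name begins with mmu on the 4 home cage arrays, 1034 of the 2607 different capture probes on the array, and these 4 arrays were taken from a series of 8. Mice left in their home cage were the untreated controls of a fear conditioning study; the conditioned mice of that study were not used and nothing was compared with them. Bilateral tissue was taken from each frozen brain with a 1 mm punch, and 500 ng of total RNA per mouse was labelled with the dye Hy3 and hybridised together with a Hy5-labelled pool. The labels name no nucleus of the amygdala, so each value is the mean over all cells in the punches, and fewer cells of a type cannot be told apart from less RNA per cell.

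A miRNA is a short RNA that is cut as a duplex from a hairpin precursor and loaded into an Argonaute protein, where bases 2 to 8, the seed, pair with target mRNAs. One strand of the duplex, the guide, is usually kept, and the names on this array mark the other strand with a star. Brain tissue is known for high miR-124 and miR-9, which are abundant in neurons and neural precursors, and for let-7, miR-29, miR-30 and miR-125 family members, which are found in many cell types. A probe's brightness also depends on how well its own sequence binds, so the order of probes is an order of signals and a description, not a molar scale, and no fold change was taken between probes.

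The mature sequences of the brightest families are shown because their members share a seed and differ in a few bases only. They were taken from RefSeq, build GRCm38.p6, which held a mature sequence for 515 of the 1034 probes and for 17 of the 25 brightest. Capitals mark the seed, bases 2 to 8 from the 5′ end.
miR-29a: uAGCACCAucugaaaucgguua
miR-29b: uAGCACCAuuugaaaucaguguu
miR-29c: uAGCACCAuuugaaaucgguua
miR-125b-5p: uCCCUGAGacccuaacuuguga
miR-125a-5p: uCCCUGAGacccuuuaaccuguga
let-7c: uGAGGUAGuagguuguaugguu
let-7g: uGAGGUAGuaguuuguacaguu
miR-30c: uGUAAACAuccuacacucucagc
The members were compared position by position over 22 bases from the 5′ end, with no gaps allowed. By this count miR-29a and miR-29c differed at 1 position, miR-29a and miR-29b at 4, and miR-29b and miR-29c at 3. let-7c and let-7g differed at 3, and miR-125b-5p and miR-125a-5p at 7. The last 2 sequences are 22 and 24 bases long, so the 7 includes positions shifted by the added bases and overstates their difference. RNA of one member may therefore bind a relative's probe, and how much it did was not tested. The miR-29a sequence lies at chr6:31062673-31062694 on the minus strand and inside no other annotated gene, and miR-29c at chr1:195037600-195037621 on the plus strand within the span of A330023F24Rik.

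Both arms of the miR-9 and miR-491 hairpins are shown next, since the starred probes of these hairpins were the only starred probes among the 25 brightest. The 5p sequences are those of the unstarred probes and the 3p sequences those of the starred ones.
miR-9: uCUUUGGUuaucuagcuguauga
miR-9*: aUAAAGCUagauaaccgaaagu
miR-491: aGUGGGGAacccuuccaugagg
miR-491*: cUUAUGCAagauucccuucuac
The sequence of miR-491* lies at chr4:88122091-88122112 on the plus strand, within the span of Focad. RefSeq gave miR-9 at 3 loci, at chr13:83738821-83738843, chr3:88215613-88215635 and chr7:79505279-79505301, all on the plus strand.

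The signal of a probe was the mean spot brightness minus the local background, averaged over its spots that did not carry flag 3 or 4, out of 4 spots per probe. A probe was counted as above the negative controls on an array when its signal exceeded the 95th percentile of that array's negative control spots, which was 19.0, 20.5, 19.6 and 21.1 scanner units for mice 1 to 4. By this threshold 569, 653, 656 and 569 probes were above on the arrays of mice 1 to 4, between 55.2% and 63.6% of the probes with a value. On all 4 arrays 512 of 1034 probes were above (49.5%), on 3 arrays 90, on 2 arrays 40, on 1 array 49, and on none 343. No spot was saturated.

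The threshold was also passed by probes for miRNAs of viruses, which uninfected tissue should lack. Of 57 such probes 15 were above on all 4 arrays (26.3%): 3 of 29 for mouse cytomegalovirus (10.3%) and 12 of 28 for murine gammaherpesvirus (42.9%). The brightest viral probe reached between 141 and 266 scanner units on the 4 arrays. A mouse probe near the threshold is thus not shown to have detected its miRNA, and the cause of the viral signals was not tested. The probes just above the threshold by their mean ratio to it were miR-3093-3p, miR-302d and miR-205, each above on 3 arrays, and those just below were miR-425* on 2, miR-547 on 3 and miR-449c on 1.

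The array of mouse 1 stood apart from the others. Its local background exceeded 100 scanner units at 471 of the mouse probe spots, against 1, 4 and 0 spots on the arrays of mice 2 to 4, and 72 of its mouse probes had a signal below 0, against 0 on each of the others. Its probe signals correlated with those of the other arrays at Spearman's rho between 0.884 and 0.891 across at least 1025 probes, and the other 3 arrays with each other between 0.975 and 0.980. With spots of local background over 100 left out, a step added after the data were seen, the rho of mouse 1 with the others was between 0.971 and 0.976 and 546 probes were above on all 4 arrays. On arrays 2 to 4 alone, 559 probes were above.

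Signal was concentrated in few probes. The brightest probe held 12.3% ± 0.97 of the summed mouse probe signal (SD, n = 4 mice), the 10 brightest of each array 52.1% ± 2.46, and the 25 probes with the highest median rank 64.6% ± 1.94. Between 8 and 10 probes made up 50% of the signal, and between 154 and 198 made up 90%. At position 10 of each ranking the signal was 4915, 6830, 5613 and 6416 scanner units in mice 1 to 4, at position 100 it was 303, 318, 264 and 298, and at position 500 it was 22.1, 27.7, 25.7 and 26.7. The median mouse probe was at 21.1, 26.6, 24.4 and 24.7 scanner units on the arrays of mice 1 to 4, close to the thresholds.

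The same probes led in every mouse. All 5 probes of the top 5 and all 10 of the top 10 were shared by the 4 arrays, 11 of the top 12 and 21 of the top 25; any pair among mice 2 to 4 shared 23 or 24 of the top 25, and mouse 1 shared 21 or 22 with each. The order of these probes was therefore much the same with or without the array of mouse 1.

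The brightest probe was the one shared by miR-1937a and miR-1937b, with 36529, 36117, 27510 and 34593 scanner units in mice 1 to 4, followed among related probes by miR-1937a alone with 20232, 21441, 18191 and 19708. miR-720 followed them, with 14248, 17276, 12577 and 16199 scanner units. The miR-1937 sequences and miR-720 were later taken off the miRNA registry as fragments of transfer RNA, so the head of the list is not made of miRNAs alone. A probe for miR-1937c stood further down, at 2192, 2483, 1950 and 2301 scanner units.

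miR-124, the best known neuronal miRNA, which represses non-neuronal transcripts, ranked 2 or 3 in every mouse, with 24860, 22093, 18113 and 19026 scanner units. Its median share of the mouse probe signal was 7.38%. miR-9, which regulates neural progenitors and neurons, had 5937, 6830, 5613 and 6416 scanner units and ranked 9 or 10 in every mouse. Among the 25 brightest probes miR-9 varied least in relation to the array medians, with an SD of 0.059 on the log2 scale. miR-138, a miRNA of dendrites that limits spine size, had 2734, 2961, 2123 and 2723 scanner units. miR-128, which is enriched in neurons, had 1946, 2044, 1678 and 2066.

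The miR-29 family, known for repressing collagens and DNA methyltransferases and for its rise in mature brain, had 3 probes among the 25 brightest. miR-29a had 13900, 14181, 9941 and 11351 scanner units in mice 1 to 4, and miR-29b had 8843, 12275, 9454 and 10920. miR-29c had 1676, 2804, 2340 and 2531, and mouse 1 was the lowest. The probes with the seed AGCACCA together held 9.14% ± 0.36 of the signal (SD, n = 4), more than any other seed among the matched probes.

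The seed CCCUGAG of miR-125a and miR-125b, relatives of the worm timing gene lin-4, held 4.20% ± 0.34 of the signal. miR-125b-5p had 10231, 9837, 8240 and 8944 scanner units and miR-125a-5p 2334, 2263, 1911 and 2081. For both probes mouse 3 was the lowest. These signals were not scaled between arrays, and the array of mouse 3 had the smallest summed mouse probe signal, 242453 against 268037 to 303077 scanner units. The let-7 seed GAGGUAG was carried by 10 matched probes, including miR-98 and miR-1961, and held 3.63% ± 0.55, between 2.80% and 3.96%. All 9 unstarred let-7 and miR-98 probes were over the negative control threshold in all 4 mice, against 5 of the 11 starred ones. let-7c had 816 scanner units in mouse 1 and 1960, 1581 and 1947 in mice 2 to 4, and without the spots of high local background mouse 1 was at 954, still the lowest. Among the matched probes the seed GUAAACA was carried by miR-30c, miR-30e, miR-30a and miR-384-5p, which held 1.57% ± 0.022 of the signal. miR-30b had no matched sequence and was left out of that sum. The list of 11 miR-30 probes, which includes miR-30b and the starred ones, held 2.39% ± 0.18. miR-30c had 2541, 2854, 2311 and 2471 scanner units.

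The other probes among the 25 brightest were miR-709 (7219 to 9629 scanner units), miR-690 (4915 to 6988), miR-1983 (2530 to 3591), miR-2145 (1879 to 3054), miR-136 (1641 to 2602), miR-30b (967 to 1971), let-7g (1593 to 2001) and miR-691 (1061 to 2239). RefSeq placed miR-690 within the span of Fgf12, miR-691 within Robo2 and miR-136 within Rtl1, an imprinted gene. Gene spans were read without regard to strand, here and throughout, so a span does not show that the miRNA comes from that gene's transcript. Among the 25 probes mouse 1 was the lowest for miR-29b, miR-690, miR-491*, miR-29c, miR-9*, miR-30b, let-7c and miR-691. Without spots of local background over 100, mouse 1 stayed the lowest for 3 of these 8, miR-30b (1635 in place of 967 scanner units), let-7c (954 in place of 816) and miR-691 (1451 in place of 1061), and for miR-690, miR-491*, miR-29c and miR-9* it became the highest. Of the 25 probes 5 had a number of 1000 or above, among them the miR-1937 probes. Of all 1034 mouse probes 246 had such a number. Of these 246 probes 82 (33.3%) were over the negative control threshold in all 4 mice. For lower numbers or a let-7 name it was 430 of 788 (54.6%).

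The tissue label was checked against miRNAs known as markers of cell types and tissues. Of 31 probes for neuronal miRNAs 24 were over the negative control threshold in all 4 mice (77.4%), beside the 49.5% of all mouse probes, and the whole list held 15.4% ± 1.09 of the signal, with a median rank of 141.5 over the list, beside 518 over all mouse probes. All 16 unstarred members were above. miR-132, which is induced by neuronal activity through CREB, had 495, 552, 403 and 473 scanner units. miR-134, a dendritic miRNA that represses Limk1 translation, had 22.2, 21.2, 20.6 and 21.7 and lay just over the thresholds on all 4 arrays.

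For markers of glia, vessels and blood the counts stand beside the 49.5% of all mouse probes that were above. The oligodendrocyte list had 4 of 5 probes above on all 4 arrays (80.0%), led by miR-338-3p with 432, 1562, 834 and 1362 scanner units and miR-219-5p, which promotes oligodendrocyte differentiation, with 533, 1124, 677 and 805. The mice differed more for these probes than for miR-124 or miR-9, and mouse 1 was the lowest for both. Without spots of local background over 100, miR-338-3p had 633 in mouse 1. Of the astrocyte list 6 of 8 were above (75.0%), led by miR-143 with 298 to 344 scanner units. miR-143 is also a member of the vessel list, so it does not mark astrocytes alone. Of the microglia and leukocyte list 9 of 16 were above (56.2%), led by miR-342-3p with 267 to 331. miR-142-3p, a miRNA of blood cells and microglia, had 114, 133, 108 and 124, below the 141 to 266 of the brightest viral probe. The endothelial miR-126-3p had 788, 1078, 895 and 977 scanner units and led a vessel list with 3 of 6 above. miR-451, which is made in red blood cells, had 368, 575, 892 and 594, and the red blood cell list had 3 of 5 above.

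The choroid plexus and ciliated cell list had 7 of 14 probes above on all 4 arrays, near the 49.5% of all mouse probes. It was led by miR-34b-5p, and its share of the signal ranged from 0.217% in mouse 1 to 0.954%. These cells line the ventricles, and the punches' share of them was not measured.

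Lists of markers of tissues outside the brain are set beside the 49.5% of all mouse probes and the 35.5% of starred probes that were above on all 4 arrays, since 7 of 15 muscle, 4 of 8 pancreas and 7 of 14 epithelium members are starred. Counts above were 4 of 15 for muscle (26.7%), 1 of 8 for pancreas (12.5%), 2 of 14 for epithelium (14.3%), 1 of 6 for photoreceptors (16.7%), 5 of 30 for the X-linked testis cluster (16.7%) and 8 of 24 for embryonic stem cells (33.3%). Unstarred members alone passed in 4 of 8 cases for muscle, beside 56.0% of all unstarred mouse probes. In the other lists, in the same order, unstarred counts were 0 of 4, 2 of 7, 0 of 3, 5 of 23 and 7 of 16. The members that passed were dim in the first 4 of these lists: miR-208a-5p led the muscle list with 37.0 to 42.1 scanner units, miR-203 led the epithelium list with 31.3 to 32.6, miR-183* the photoreceptor list with 34.6 to 45.97, and miR-375* the pancreas list with 20.8 to 25.8. miR-290-5p, of the embryonic stem cell list, had 174, 237, 185 and 226, and miR-883a-5p, of the testis list, 138, 170, 130 and 190, within or below the range of the brightest viral probe. miR-122 of liver was above on all 4 arrays, and its list held 0.016% ± 0.0012 of the signal. No member of the muscle, pancreas, epithelium or photoreceptor lists had a median rank ahead of 376. Of 11 probes for miRNAs of the Hox gene clusters, which are active in hindbrain and spinal cord, 3 were above (27.3%), led by miR-196a-1* with 85.2 to 112 scanner units.

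Among genomic clusters and larger families, the imprinted cluster between miR-379 and miR-410, which is transcribed from the maternal chromosome and active in brain, had 45 of 69 probes above on all 4 arrays (65.2%), beside 49.5% of all mouse probes, and held 2.93% ± 0.12 of the signal. It was led by miR-376a, with 994, 841, 691 and 728 scanner units, and by miR-381, with 663, 662, 524 and 582. The ranks of the whole cluster had a median of 332. The miR-466, miR-467, miR-669 and miR-297 group, a rodent family with many copies in an intron of Sfmbt2, had 56 of 71 probes above (78.9%, beside the same 49.5%) and held 2.43% ± 0.10. Its brightest member was miR-466i-5p, with 437, 406, 334 and 406 scanner units. All 7 of its members with a RefSeq sequence held GUGUGU or ACACAC, letters that were present in 18 of the 515 matched sequences (3.5%), read on the mature strand alone. Probes for such repeats may share RNA, so the members were not counted as independent.

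Widely expressed families followed. The miR-23, miR-27 and miR-24 probes had 7 of 11 above and held 1.47% ± 0.13 of the signal, led by miR-24 with 1359, 1552, 1238 and 1499 scanner units. The miR-15 and miR-16 list had 5 of 13 above and was led by miR-16, with 1015, 1537, 1207 and 1293. The miR-17 to miR-92 clusters, known for promoting proliferation, had 12 of 28 above (42.9%), beside 49.5% of all mouse probes. Unstarred members alone passed in 9 of 14 cases, beside 56.0% of all unstarred mouse probes. Starred members passed in 3 of 14, beside 35.5% of all starred ones. The list was led by miR-106b with 246 to 321 scanner units. The miR-103 and miR-107 list had 4 of 5 above, the miR-26 list 4 of 5, the miR-99 and miR-100 list 5 of 6, and the miR-181 list 5 of 10.

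Starred probes were above the negative controls less often than the others: 116 of 327 starred probes (35.5%) and 396 of 707 probes without a star (56.0%) passed on all 4 arrays. In 322 cases the starred probe could be paired with the unstarred probe of its hairpin, and in 311 of these both were measured on all 4 arrays. The unstarred probe had the higher signal in every mouse in 213 pairs, the starred probe in 53, and the order differed between mice in 45. With 4 arrays an exact two-sided sign-flip test of a single pair cannot go below p = 0.125, so no pair was tested.

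In 92 pairs both probes were over the negative control threshold in all 4 mice. Of these the unstarred one was the higher in every mouse in 67, the starred one in 19, and 6 changed order. Only the unstarred probe was above in 127 pairs, only the starred probe in 22, and neither in 70.

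miR-9* was the brightest starred probe whose partner was brighter still, with 1901, 2784, 2384 and 2493 scanner units, and ranked between 13 and 21. It is known to act beside miR-124 on chromatin remodelling subunits during neuronal differentiation. miR-136* had 420, 371, 310 and 318 scanner units, miR-132* had 343, 337, 255 and 274, and miR-29a* had 266, 257, 205 and 214. These starred probes were well over the thresholds in every mouse, and their unstarred partners were all among the 100 brightest.

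The brightest starred probe with a dimmer partner was miR-491*, with 2541, 3703, 3075 and 3660 scanner units, a median rank of 11, while miR-491 had 58.2, 50.04, 39.9 and 48.2, a median rank of 350.5. Without spots of high local background the value of miR-491* in mouse 1 was 4026. The sequences of both arms, shown above, have different seeds. miR-503* had 236, 234, 190 and 272 scanner units and miR-503 55.01, 53.02, 43.6 and 55.2. miR-433* had 345, 382, 310 and 403 and miR-433 193, 172, 139 and 173. For miR-872* the values were 213, 210, 198 and 221, and for miR-872 85.2, 91.1, 83.0 and 85.7. These pairs were named because the starred probe was the higher in every mouse, so the gap between their ranges is no separate result.

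Of the 19 pairs with both arms above and the starred probe higher in every mouse, the 12 with the brightest starred probes are named. Beside the 4 above they were miR-669c*, miR-467e*, miR-32*, miR-677*, miR-669l*, the shared probe of miR-669d*, miR-467a* and miR-140*. miR-140* had 74.2 scanner units in mouse 1 and 175, 144 and 164 in mice 2 to 4, against 57.1, 50.7, 43.0 and 49.7 for miR-140. Without spots of local background over 100, miR-140* had 185 in mouse 1, which turned that mouse from the lowest to the highest. In several of these pairs the hairpin belongs to the repeat family described above, miR-669c, miR-467e, miR-669l and miR-467a, as does that of miR-669d. miR-299* had 257, 256, 196 and 227 scanner units, while miR-299 stayed below the negative controls on all 4 arrays at 16.7 to 18.8. Where the names used -5p and -3p in place of a star, neither arm prevailed: of 112 pairs the 5p probe was higher in every mouse in 42 and the 3p probe in 41.

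Differences between mice were small for most probes. Over the 512 probes that passed the negative control threshold in all 4 mice, log2 signals centred on each array's median had a median SD of 0.16, and 90% of probes were at or below 0.32. Without mouse 1 the median SD was 0.094. Labels say that each array held RNA of a separate animal, but biological and technical spread cannot be told apart with 1 array per mouse.

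The probes with the largest SD were miR-34c, miR-34b-5p and miR-204. miR-34c and miR-34b-5p are transcribed together from separate hairpins and are linked to motile cilia. Whether RNA of one binds the other's probe was not tested, so these 2 probes were not counted as independent. miR-204 is a miRNA of choroid plexus and pigment epithelium. miR-34c had 67.4 scanner units in mouse 1 and 433, 587 and 576 in mice 2 to 4, with an SD of 1.42 on the log2 scale. miR-34b-5p had 93.7 in mouse 1 and 547, 733 and 788 in the others, with an SD of 1.37. miR-204 had 101 in mouse 1 and 410, 543 and 628 in the others, with an SD of 1.13. For these 3 probes mouse 1 was lower than every other mouse.

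Mouse 1 was likewise the lowest for miR-1298, miR-34c* and miR-448-3p. Their values in mouse 1 lay close to its threshold of 19.0 and its highest negative control spot of 19.8 scanner units. They are therefore not separated from the negative controls there, and the size of their gap to the other mice is loose. miR-1298, which lies at chrX:147064918-147064939 within the span of Htr2c, a serotonin receptor gene that is highly expressed in choroid plexus, had 20.8 scanner units in mouse 1 and 55.9, 82.5 and 93.7 in mice 2 to 4. miR-34c* had 20.3 in mouse 1 and 47.3, 62.7 and 61.7 in the others. miR-448-3p, of the choroid plexus list, had 20.6 in mouse 1 and 32.5, 47.8 and 42.9. miR-204 itself lies at chr19:22750610-22750631 within the span of Trpm3. Its other arm did not share the pattern, with 84.2, 87.8, 75.3 and 89.8 scanner units for miR-204* in mice 1 to 4.
miR-204: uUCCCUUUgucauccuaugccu
miR-1298: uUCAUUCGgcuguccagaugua
The sequences are shown because these miRNAs separated mouse 1 from the others. They carry different seeds.

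High local background was not seen at 5 of these probes in mouse 1. Each of miR-34c, miR-34b-5p, miR-204, miR-1298 and miR-34c* was measured there in 4 spots with a local background of at most 90 scanner units, and the 4 spots of miR-34c read between 60.4 and 76.7. Without spots of local background over 100 these 5 probes had the 5 largest SDs. In the authors' deposited log ratios of sample to pool, whose scale and log base are not stated, miR-34b-5p ran at -1.96, -0.12, 0.48 and 0.32 in mice 1 to 4, miR-34c at -1.73, -0.19, 0.58 and 0.36, and miR-204 at -1.22, 0.045, 0.56 and 0.38, so mouse 1 was the lowest by that measure too. Mouse 1 also had the lowest ratio for miR-100 (-0.75), miR-378 (-0.70) and miR-409-5p (-0.46), whose low signals moved with local background. A low ratio in mouse 1 was thus not particular to probes without high local background. The largest SD of the ratio, 1.47, was that of miR-3104-3p, with -2.44 in mouse 1 and 0.60, 0.45 and 0.45 in mice 2 to 4. How many cells of the choroid plexus or ependyma each punch held is not given.

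For other probes the low value of mouse 1 moved with its local background. miR-100 had 57.6 scanner units in mouse 1 and 226, 187 and 211 in mice 2 to 4, and its spots in mouse 1 read from -103 to 171 with a local background of up to 298. Without spots of high local background mouse 1 stood at 168. miR-664 had 32.5 in mouse 1 and 128, 102 and 117 in the others, and mouse 1 stood at 120 without those spots. miR-409-5p, miR-339-5p and miR-378 likewise read 24.5, 20.0 and 58.0 in mouse 1 and 76.8, 69.7 and 167 without those spots, beside 66.8 to 81.4, 58.8 to 62.6 and 154 to 187 in mice 2 to 4. miR-338-3p was at 432 in mouse 1 and 633 without those spots, still below the 834 to 1562 of the others.

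A single high value stood out for miR-3102-5p.2, with 63.8 scanner units in mouse 3 and 27.8, 25.3 and 23.2 in mice 1, 2 and 4. Its deposited ratios differed little, with an SD of 0.038. The ratio of miR-451 was 0.60 in mouse 3 against -0.48, -0.21 and -0.092 in mice 1, 2 and 4. That of miR-144, which is transcribed together with miR-451 in red blood cells, was 0.63 in mouse 3 against -0.21, -0.095 and -0.23. Their signals moved the same way: miR-451 had 892 scanner units in mouse 3 against 368 to 594 in the others, and miR-144 had 130 against 76.5 to 92.3.

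The 515 probes with a RefSeq sequence were described by base composition and locus, which the choice of members did not use. The 68 matched probes of the top 100 had a median GC content of 40.9%, beside 50% for all matched probes and 52.2% for the 159 above on no array. Across the 515 probes GC content and brightness had a Spearman's rho of -0.25, and across the 270 above on all 4 arrays -0.40. These are correlations across probes of the same 4 arrays, and a dependence of the probes themselves on base composition was not tested. A U at the first base, which Argonaute proteins favour, was present in 41 of the 68 (60.3%) and in 183 of the 515 (35.5%).

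Many of the brightest matched miRNAs came from more than 1 locus. Of the 17 matched probes among the 25 brightest 8 had more than 1 locus in RefSeq (47.1%), beside 17 of 68 in the top 100 (25%) and 29 of 515 overall (5.63%). A locus inside the span of another annotated gene was as frequent among the probes above on all 4 arrays, 183 of 270 (67.8%), as among the 159 above on none (67.3%).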

How the data were processed

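Mouse miRNAs were measured in 4 home cage arrays, 1 per mouse. The deposited scanner files hold, per the file headers, each spot's mean signal and background as an intensity, not normalized. The array is of the 6th generation, with 180 Hy3 landmark spots per array at median signals between 3528 and 4044. The authors' deposited log ratios, taken as log2 and as sample over pool, with log base, centring and normalization not stated, were used only for the spread between mice; over 512 probes they correlated with the centred signals at r between 0.51 and 0.62 per array, and their medians were between 0.0014 and 0.018. Of the 4136 mouse probe spots per array, 411 to 610 carried flag 3 or 4 and were left out. Negative controls were 19 to 27 spots per array from 7 probes, and their number limits the precision of the thresholds. Python 3.11.15 and pandas 2.3.3 were used, with limma 3.58.1 for the normexp (offset 50) and quantile alternative. Named probes were the 25 with the highest median rank, the leader of each of 28 lists, the 10 brightest starred probes with their partners, up to 12 pairs with the starred probe higher and both above, the 12 largest SDs and 3 probes on each side of the threshold; other members named were chosen after their values were seen. Arm names came from a hand-made table, and 237 of the 515 RefSeq matches went through it. The members, lists and rules were chosen with earlier results of these data known. The calculations recovered known ranks and spreads on simulated data. The simulated spots had no local background and no binding between related probes, so neither was tested by it. Alternatives were other thresholds, flagged spots kept, medians over spots, no background subtraction and each array left out.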

Additional observations from a re-analysis of the deposited data

Results flagged for a closer look

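Dixon's test was run on centred log2 signals. Of 88 named probes that passed the threshold in all 4 mice, 12 had 1 array far from the other 3. Over all 512 such probes it was 58 (11.3%), and chance alone gives about 1 in 20. The named probes include those with the largest SDs between these same arrays, among them the flagged miR-100, miR-664, miR-409-5p and miR-339-5p. The count of 12 was thus partly set by that choice and is not to be read against chance. The distant array was that of mouse 1 in 11 of the 12. Mouse 1 was the low one for miR-491* (5.13), miR-30b (3.74), let-7c (3.49), miR-100 (-0.33), miR-140* (0.036), miR-664 (-1.15), miR-409-5p (-1.56) and miR-339-5p (-1.86). It was the high one for miR-466i-5p (2.59), miR-140 (-0.34) and miR-491 (-0.32). Mouse 4 was the high one for miR-196a-1* (0.37). Without spots of local background over 100, mouse 1 stayed the distant, low array for let-7c (954 scanner units) and miR-100 (168), while for miR-140* (185) it was distant as the highest array. The other 9 of the 12 had no distant array, and over all probes 44 had one (8.06%), in 32 of them mouse 1.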

How the results depend on the processing

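The 512 probes counted as passing in all 4 mice depended on the threshold: the count was 931 with empty spots added to the negative controls, 220 without background subtraction and 198 against the 95th percentile of the viral probes, the last chosen after seeing the data. The 254 members of the lists counted as above changed with it to 414, 123 and 116. The 25 brightest probes held 53.9% of the signal without background subtraction and 51.5% after normexp and quantile normalization, in place of 64.6%. Of the 12 largest SDs, 5 were the same after normexp and quantile normalization, 7 by the deposited ratios, 5 with flagged spots kept, 7 without spots of high local background (chosen after seeing the data), and between 4 and 12 with each replicate left out, the lowest without mouse 1. The other 58 values of the main results stayed within 1.5 times or 1 SD. No paired analysis was possible because the home cage arrays were compared with no other group. With 4 arrays and few negative control spots, signals of under about 30 scanner units are not separated from the negative controls, and ranks there are loose.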
